A study of Homo sapiens with 6 samples.

Results

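Long intergenic noncoding genes that carry a LINC number and whose normalized counts averaged 50 or more are described here in LX-2 cells given IGFBP-7 or phosphate-buffered saline (PBS). The members were the rows of the deposited table with lncRNA as the gene type and a symbol made of LINC and digits, and 154 of 1140 such rows, in a table of 16569 genes, reached that mean. Members were selected on symbol, gene type and the mean over all 6 libraries, so their levels are a description. LX-2 is an immortalised line of human hepatic stellate cells, the liver pericytes that make scar matrix after injury, and all libraries come from this 1 wild-type line. Cells were grown in medium with 2% fetal bovine serum, kept 18 h without serum, and then given 100 ng/mL of IGFBP-7, a secreted protein that binds insulin-like growth factors, or PBS for 24 h. There were 3 IGFBP-7 and 3 PBS libraries of poly(A) RNA. The labels do not say whether the 3 libraries of a treatment are separate cultures, so p-values reflect the spread among these libraries alone, and that spread may be technical.

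A LINC symbol is a placeholder: it is given to a transcript of a gene that lies between coding genes, has no evident protein and no better-known name. Such RNAs are made by RNA polymerase II, and many are spliced and polyadenylated, so a poly(A) library captures them. They are often present at few copies per cell and in few cell types, and some act on neighbouring genes, others on RNA-binding proteins or microRNAs, while most have no established function. Many are known mainly from studies of tumour cells.

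The IGFBP-7 libraries held 45242993 to 55479940 recovered reads and the PBS libraries 40599380 to 43537923, with 2 reads taken as 1 fragment. A level of 50 normalized counts stood for 46.8 to 59.0 fragments per library, and 3 fragments, the floor of detection, for 2.54 to 3.20. Of 14 stellate and fibroblast markers 12 were in the table and summed to 326748 to 361645 normalized counts in IGFBP-7 libraries and 118810 to 122646 in PBS libraries. Among the 11 tested of these, 8 rose (72.7%), 1 fell (9.09%) and 2 did not pass, against 31.3% of all tested genes higher and 29.2% lower. COL1A1 was the largest part of both sums, at 198928 ± 8843 with IGFBP-7 and 49614 ± 1794 with PBS. LUM was the 1 that fell, to 109 ± 9.84 with IGFBP-7, against 354 ± 58.5 with PBS. DES, the desmin gene, averaged 1.36 ± 2.36 with IGFBP-7 and was listed at 0 with PBS. ALB, APOA1 and APOB of hepatocytes, CDH1 and EPCAM of epithelium and PTPRC of leukocytes averaged under 10 in both groups. The 6 leukocyte genes in the table summed to 1736 to 2016 with IGFBP-7 and 3286 to 3370 with PBS. CD68, a lysosomal protein gene, and CD14 fell, and CSF1R rose. SERPINA1 made up nearly all of the hepatocyte sum, at 227 ± 24.2 with IGFBP-7 and 252 ± 26.5 with PBS, and did not pass. SOX9, at 1193 ± 65.9 with IGFBP-7 and 852 ± 44.5 with PBS, rose, and with KRT7, at 470 ± 17.5 with IGFBP-7 and 400 ± 73.4 with PBS, made up nearly all of the epithelial sum. Of the endothelial genes PECAM1 and TEK rose, and CDH5 was listed at 0 with IGFBP-7. The summed levels with IGFBP-7 and with PBS were 219 to 260 and 242 to 291 for hepatocyte genes, 435 to 504 and 324 to 359 for endothelial genes, and 1634 to 1736 and 1210 to 1341 for epithelial genes. The part of these marker levels in the LINC results was not tested, and in bulk RNA fewer cells of a type and less RNA per cell cannot be told apart.

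LINC genes moved both ways after IGFBP-7. Of the 154 members, 39 rose, 38 fell and 77 did not pass (limma-trend on log2(normalized count + 1), adjusted over all 11872 tested genes, adjusted p under 0.05). The share called was 50% of members, against 60.6% of all tested genes, of which 31.3% rose and 29.2% fell. The members' median log2 change was -0.07, with quartiles of -0.42 and 0.35, against a median of 0.02 for all tested genes. The largest changes were a rise of 9.56-fold in LINC01711 and a fall of 16.0-fold in LINC00707, and 12 members rose and 14 fell at least 2-fold (7.79% and 9.09% of members, against 5.05% and 6.33% of all tested genes). The groups did not overlap in 84 members (54.5%), against 63.5% of all tested genes. Summed over the members, the normalized counts were 40959 to 41609 in IGFBP-7 libraries and 40510 to 41947 in PBS libraries, ranges that overlapped. As a share of a library's normalized counts over the genes of the table the members took 0.170% to 0.177% with IGFBP-7 and 0.190% to 0.194% with PBS.

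**Figure D1:**
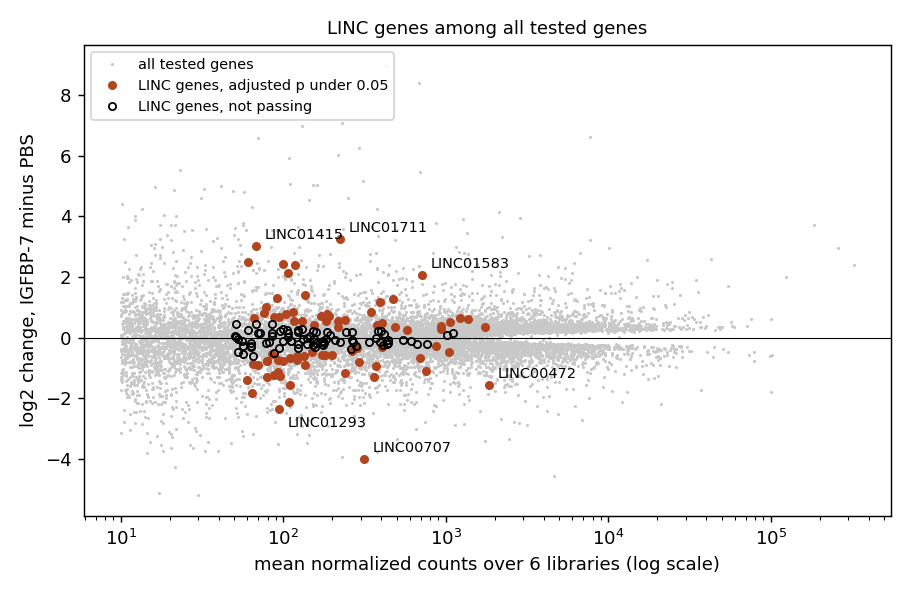
Log2 change (IGFBP-7 minus PBS) against the mean normalized count over 6 libraries on a log axis, with 11872 tested genes in grey, the 77 changed LINC genes filled and the 77 others open. The LINC genes lie on both sides of 0, and LINC00707, 16.0-fold lower, is the lowest of them.

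In 17 members 1 group mean was under 50, so that the other group carried them over the threshold of membership, and 14 of these were called. Changes of at least 2-fold include members of this kind, LINC01711 and LINC00707 among them. The 2-fold shares above are thus not free of the selection, and all tested genes had to reach a mean of only 10. Among members with both group means at 50 or more, 33 rose and 30 fell. Scaling each library to its total over the genes of the table, which moved the median of all tested genes by -0.14, gave 30 members higher and 51 lower, against 2432 and 4176 of all tested genes.

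The share of genes called was highest at 500 and over in all 3 gene classes, so members were set beside genes of like level. At a mean of 50 to 100, 22 of 47 LINC genes were called (46.8%), against 30.3% of 238 other lncRNA genes and 40% of 617 protein-coding genes. At 100 to 200 the shares were 46.2% of 52 LINC genes, 29.6% of 250 other lncRNA genes and 46.2% of 769 protein-coding genes. At 200 to 500 they were 50% of 36 LINC genes, 44.5% of 263 other lncRNA genes and 50.6% of 1363 protein-coding genes. At 500 and over they were 68.4% of 19 LINC genes, 70.3% of 269 other lncRNA genes and 84.5% of 5779 protein-coding genes. Below 200 the LINC genes thus stood at or above the coding genes in share called, and at 500 and over below them. These differences between classes were not tested.

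**Figure D2:**
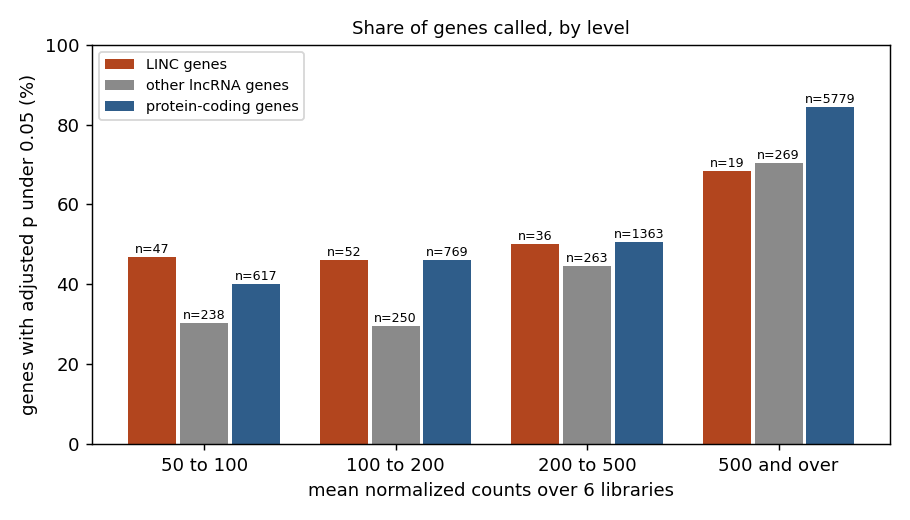
Percentage of genes with a limma adjusted p under 0.05 by mean normalized count, for LINC genes, other lncRNA genes and protein-coding genes, with the number of genes above each bar. The share of LINC genes lies between 46.2% and 68.4% over the 4 levels.

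Of the rising members, LINC01711 had the largest change. It had 372, 493 and 342 normalized counts in the IGFBP-7 libraries and 56.6, 48.1 and 24.6 in the PBS libraries, a log2 change of 3.26 ± 0.22 (SE, limma adjusted p = 1.16e-18). Every IGFBP-7 library was far above every PBS library. The PBS mean of LINC01711 was 43.1, under 50, so it was its IGFBP-7 values that made it a member. LINC01583 had 1068, 1286 and 1098 with IGFBP-7 and 300, 254 and 270 with PBS, and with a log2 change of 2.06 ± 0.10 it had the smallest adjusted p among rising members (1.52e-23). Its 3 libraries of each group lay close together and far from the other group.

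LINC01415 was among the lowest members in PBS, with 87.9, 141 and 135 normalized counts under IGFBP-7 and 10.3, 14.7 and 17.1 under PBS. These rest on 383 fragments in IGFBP-7 libraries and 41 in PBS libraries (log2 change 3.02 ± 0.33, limma adjusted p = 2.07e-11). LINC01705 was likewise low in PBS, with 90.0, 73.7 and 147 in IGFBP-7 libraries and 16.5, 13.7 and 21.4 in PBS libraries (2.48 ± 0.33). Both genes had PBS means under 50, and it was their IGFBP-7 values that made them members. In both genes all IGFBP-7 libraries were above all PBS libraries.

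LINC01629 had 177, 150 and 177 in IGFBP-7 libraries and 41.2, 19.6 and 34.2 in PBS libraries (log2 change 2.43 ± 0.26, limma adjusted p = 1.36e-11). LINC01500 had 203, 207 and 187 with IGFBP-7 and 27.8, 37.3 and 49.1 with PBS (2.39 ± 0.23). LINC02593 had 208, 175 and 143 with IGFBP-7 and 30.9, 46.2 and 40.6 with PBS (2.13 ± 0.24). In all 3 genes the groups were apart and the PBS mean was under 50. LINC01500 shares exon sequence on the same strand with DACT1, a gene for a modulator of Wnt signalling, and LINC01629 with an unnamed gene on the opposite strand, which makes both values uncertain.

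The RefSeq promoter windows (GRCh38.p14) of LINC01415 and LINC01629 are shown because both hold TGANTCA. This is a loose form of the AP-1 site that allows any middle base, and its share among promoters is given further on. Each line runs 5′ to 3′ on the gene's strand, from 250 bases before the start to 50 after it, with TGANTCA in capitals.
LINC01415, chr18:55781676-55781975, minus strand: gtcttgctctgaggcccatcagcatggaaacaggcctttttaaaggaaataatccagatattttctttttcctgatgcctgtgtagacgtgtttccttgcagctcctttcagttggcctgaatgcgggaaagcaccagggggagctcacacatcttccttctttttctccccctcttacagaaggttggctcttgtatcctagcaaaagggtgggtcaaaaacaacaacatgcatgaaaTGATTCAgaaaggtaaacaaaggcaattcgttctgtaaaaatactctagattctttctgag
LINC01629, chr14:76959388-76959687, plus strand: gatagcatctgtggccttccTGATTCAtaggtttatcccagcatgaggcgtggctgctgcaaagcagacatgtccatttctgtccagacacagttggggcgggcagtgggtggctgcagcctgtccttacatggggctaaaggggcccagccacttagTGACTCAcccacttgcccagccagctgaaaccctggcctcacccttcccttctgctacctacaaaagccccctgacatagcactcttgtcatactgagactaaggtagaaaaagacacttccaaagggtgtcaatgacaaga
In LINC01415 the match begins 11 bases before the start, and in LINC01629 the matches begin 230 and 92 bases before it.

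LINC03057, near the homeobox gene HOXB7, had 726, 611 and 667 with IGFBP-7 and 266, 265 and 286 with PBS (log2 change 1.29 ± 0.11, limma adjusted p = 2.15e-14). The groups were well apart, but an exon of LINC02086 lies on its opposite strand, and HOXB7 itself had a log2 change of 0.15 ± 0.07 and did not pass. LINC00840 had 153, 108 and 129 with IGFBP-7 and 53.5, 47.1 and 54.5 with PBS, a rise of 2.47-fold. LINC00511, LINC00941 and LINC00702 complete the 12 rises of at least 2-fold. The other 27 rises were smaller, down to a log2 change of 0.26.

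**Figure D3:**
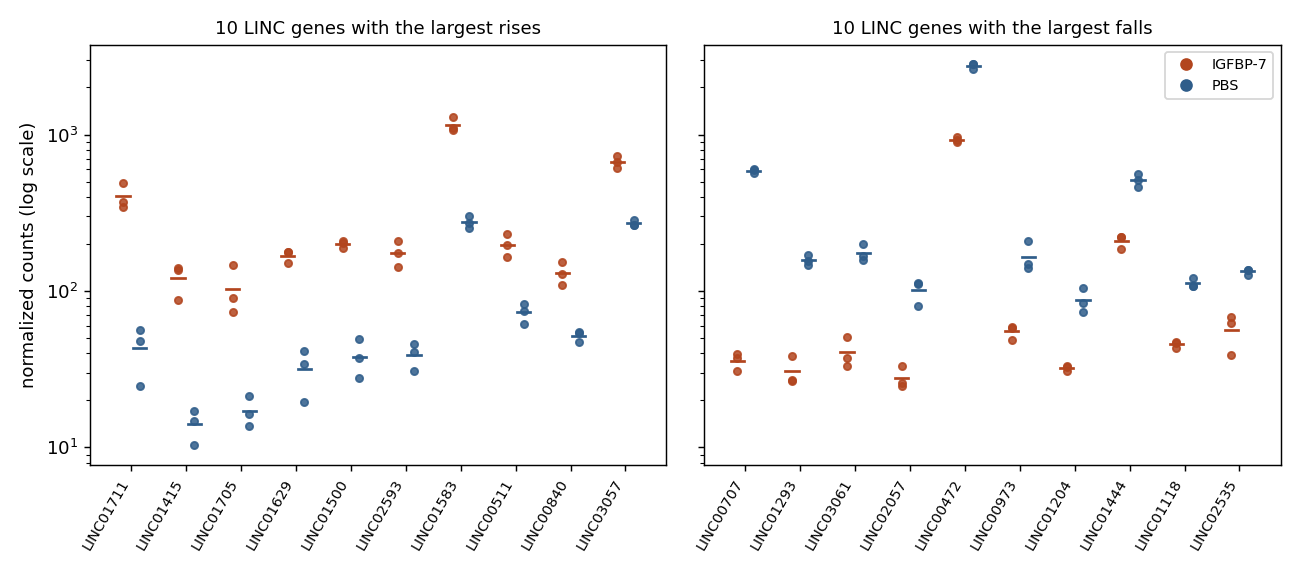
Normalized counts on a log axis in each of the 3 IGFBP-7 and 3 PBS libraries (points) with group means (bars), for the 10 LINC genes with the largest rises and the 10 with the largest falls among those that passed the test without overlap of the groups. LINC00707 has 30.7 to 39.8 with IGFBP-7 and 570 to 602 with PBS, the widest gap shown.

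Of the falling members, LINC00707 fell most. It had 30.7, 39.8 and 37.2 normalized counts in IGFBP-7 libraries and 602, 589 and 570 in PBS libraries, 16.0-fold lower (SE of the log2 change 0.18, limma adjusted p = 8.13e-26). These rest on 113 fragments in IGFBP-7 libraries and 1719 in PBS libraries. The libraries of each group lay within a narrow range. The IGFBP-7 mean of LINC00707 was 35.9, under 50, so it was its PBS values that made it a member. LINC00472, reported as a growth-restraining transcript in breast cancer, had 895, 967 and 919 with IGFBP-7 and 2606, 2834 and 2812 with PBS (log2 change -1.57 ± 0.07, limma adjusted p = 1.51e-25). It had the highest mean of all members, and it stayed at 927 ± 36.6 normalized counts after its fall. Exons of unnamed genes on the same strand overlap both LINC00707 and LINC00472, which leaves their values uncertain.

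LINC01293 had 26.6, 27.1 and 38.2 in IGFBP-7 libraries and 154, 171 and 146 in PBS libraries (log2 change -2.34 ± 0.25, limma adjusted p = 1.69e-11). LINC03061 had 51.1, 37.3 and 33.1 with IGFBP-7 and 167, 200.3 and 158 with PBS (-2.10 ± 0.23). LINC02057 had 24.5, 33.0 and 25.8 with IGFBP-7 and 110.2, 80.5 and 112 with PBS (-1.82 ± 0.29). All IGFBP-7 libraries of these 3 genes were below all PBS libraries, and their IGFBP-7 means were under 50.

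LINC00973 had 58.3, 58.4 and 48.6 with IGFBP-7 and 140.0, 208 and 148 with PBS (log2 change -1.55 ± 0.22, limma adjusted p = 2.80e-08). LINC02535 had 38.8, 67.7 and 62.0 with IGFBP-7 and 137, 127 and 137 with PBS (-1.27 ± 0.23). Their promoter windows are shown in the same way, since they too hold TGANTCA while the genes fell.
LINC00973, chr3:98914316-98914615, plus strand: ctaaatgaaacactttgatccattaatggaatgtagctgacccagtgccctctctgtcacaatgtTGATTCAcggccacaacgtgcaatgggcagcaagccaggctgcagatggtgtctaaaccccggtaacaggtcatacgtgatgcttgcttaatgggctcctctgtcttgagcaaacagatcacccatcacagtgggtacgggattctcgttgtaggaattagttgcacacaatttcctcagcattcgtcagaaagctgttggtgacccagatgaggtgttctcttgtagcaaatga
LINC02535, chr6:85404753-85405052, minus strand: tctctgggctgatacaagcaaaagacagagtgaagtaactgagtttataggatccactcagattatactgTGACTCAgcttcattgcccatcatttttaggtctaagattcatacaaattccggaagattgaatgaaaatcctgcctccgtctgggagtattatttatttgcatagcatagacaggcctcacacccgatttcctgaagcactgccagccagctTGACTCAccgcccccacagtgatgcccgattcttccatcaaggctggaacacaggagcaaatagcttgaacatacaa
In LINC00973 the match begins 185 bases before the start, and in LINC02535 the matches begin 180 and 27 bases before it. The same letters thus stand in promoters of genes that changed in opposite directions.

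LINC01204 had 32.7, 33.0 and 31.0 with IGFBP-7 and 104, 83.5 and 73.7 with PBS, a fall of 1.39 ± 0.28 on the log2 scale. Its IGFBP-7 mean of 32.2 was under 50, so its PBS values made it a member. LINC02154, which among falling members had the smallest adjusted p after LINC00707 and LINC00472 (1.31e-14, limma), had 496, 486 and 438 with IGFBP-7 and 922, 1027 and 1131 with PBS. LINC01444, LINC01443, LINC01118, LINC00886 and LINC01003 complete the 14 falls of at least 2-fold. The other 24 falls were smaller, down to a log2 change of -0.26.

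After LINC00472 the highest means over 6 libraries belonged to LINC00205, LINC00963, LINC01943, LINC01013 and LINC01128. LINC00205 had 1845, 2018 and 1991 with IGFBP-7 and 1438, 1543 and 1649 with PBS, a log2 change of 0.34 ± 0.07. LINC01128 had 1373, 1200.0 and 1180.0 with IGFBP-7 and 937, 795 and 914 with PBS (0.50 ± 0.08). In both genes the groups did not overlap. LINC01128 shares exon sequence with LINC00115 on the opposite strand, which makes its value uncertain. LINC01943 had 1473, 1442 and 1565 with IGFBP-7 and 936, 988 and 905 with PBS (0.66 ± 0.08), but its exons overlap CYTOR on the opposite strand, which averaged 5658 ± 213 with IGFBP-7 and 2946 ± 44.5 with PBS. LINC01013 had 1345, 886 and 1296 in IGFBP-7 libraries and 1054, 1072 and 1006 in PBS libraries and did not pass (log2 change 0.15 ± 0.10, limma adjusted p = 0.182). The second IGFBP-7 library lay below all PBS libraries, and without it the log2 change was 0.34 (limma adjusted p = 0.000737, within 0.000737 to 0.969 over the alternatives).

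Levels were also set per kilobase of exon, with exon lengths from GENCODE 29, since a count grows with transcript length. GENCODE 29 held 16482 of the 16569 genes of the table. The annotation that was counted is not known, so its exon lengths may differ. Members had a median of 2811 bases of exon and 60.6 normalized counts per kilobase, within 4.90 to 826. With IGFBP-7 the highest levels per kilobase were 1013 for LINC01943, 612 for LINC01618 and 489 for LINC02574. With PBS they were 799 for LINC00472, 687 for LINC02574 and 659 for LINC02154, with LINC01943 next at 639. LINC00472, first in PBS, stood at 269 with IGFBP-7. LINC02574 had 187, 219 and 241 normalized counts in IGFBP-7 libraries and 220, 196 and 492 in PBS libraries and did not pass. Replicate 3 of PBS stood well above the other libraries and carries the gene's place in PBS. The nearest coding gene is IFI6, an interferon-induced gene.

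Of 11 members listed as having been studied in tumour or other cells, 7 rose, 2 fell (LINC00707 and LINC00472) and 2 did not pass. Of all members 25.3% rose and 24.7% fell, and of all tested genes 31.3% rose and 29.2% fell. LINC01711 and LINC01705, described above, are among the 7. LINC00941, reported as a repressor of keratinocyte differentiation, had 572, 521 and 542 with IGFBP-7 and 272, 233 and 225 with PBS (log2 change 1.16 ± 0.12, limma adjusted p = 5.17e-12). LINC00511, studied as a driver of tumour cell growth, had 196, 232 and 164 with IGFBP-7, against 74.1, 82.5 and 61.9 in PBS (1.42 ± 0.20). An unnamed gene shares exon sequence with each of these genes, on the same strand for LINC00941 and on the opposite strand for LINC00511. LINC00963, first described in prostate cancer cells, had 1555, 1670 and 1738 with IGFBP-7 and 1139, 1022 and 1057 with PBS (0.62 ± 0.08, limma adjusted p = 4.72e-10). In these 3 genes the groups did not overlap.

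LINC00702 had 122, 84.7 and 105 with IGFBP-7 and 39.1, 66.8 and 49.1 with PBS, a rise of 2.02-fold. LINC00662 had 429, 486 and 367 in IGFBP-7 libraries and 285, 301 and 381 in PBS libraries, so the groups overlapped (log2 change 0.41 ± 0.13, limma adjusted p = 0.00484). That call was lost without the second IGFBP-7 library (limma adjusted p = 0.0560) and with scaling to the library total (0.0725), within 0.000597 to 0.0725 over the alternatives. LINC00467, a gene reported to be repressed by the MYCN oncoprotein, had 235, 244 and 286 with IGFBP-7 and 263, 257 and 331 with PBS and did not pass. LINC01116 had 124, 153 and 170 with IGFBP-7 and 176, 152 and 171 with PBS and did not pass either. The groups overlapped in both genes. The 95% intervals of their log2 changes were -0.43 to 0.13 for LINC00467 and -0.52 to 0.18 for LINC01116.

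Some members neighbour each other. By GENCODE 29, 25 members formed 13 pairs that overlapped or lay within 50 kb of each other. In 5 pairs both genes changed in the same direction, in 6 only 1 gene was called, and in 2 neither. LINC01443 and LINC01444, overlapping genes on opposite strands, both fell: LINC01443 had 164, 187 and 102 with IGFBP-7 and 357, 301 and 333 with PBS, and LINC01444 had 223, 220 and 185 with IGFBP-7 and 462, 510 and 563 with PBS. Their log2 changes were -1.17 ± 0.16 and -1.29 ± 0.13.

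LINC01118 and LINC01119, neighbours on 1 strand that share exon sequence, fell by 1.28 ± 0.24 and 0.61 ± 0.19 on the log2 scale. LINC01118 had 42.9, 47.4 and 46.5 with IGFBP-7 and 108, 121 and 108 with PBS. Its IGFBP-7 mean of 45.6 was under 50, so its PBS values made it a member. LINC01118 also shares exon sequence with SOCS5, a gene for a suppressor of cytokine signalling that fell by 0.53 ± 0.06. LINC01291 and LINC01293 lie 1.84 kb apart on 1 strand and both fell. LINC01291 had 1023, 794 and 829 with IGFBP-7 and 1260, 1177 and 1194 with PBS, a log2 change of -0.46 with a 95% interval of -0.64 to -0.29, while that of LINC01293 was -2.84 to -1.84. The intervals of the 2 genes did not overlap, and the difference between them was not tested. LINC00115 and LINC01128 rose by 0.65 ± 0.26 and 0.50 ± 0.08, and LINC00334 and LINC00205, neighbours at POFUT2, by 0.36 ± 0.11 and 0.34 ± 0.07. LINC00115 and LINC01128 share exon sequence on opposite strands, as do LINC00334 and POFUT2, so these values are uncertain. LINC03057 rose 2.44-fold while its partner on the opposite strand, LINC02086, averaged 103 ± 10.5 with IGFBP-7 and 88.6 ± 3.21 with PBS and did not pass.

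**Figure D4:**
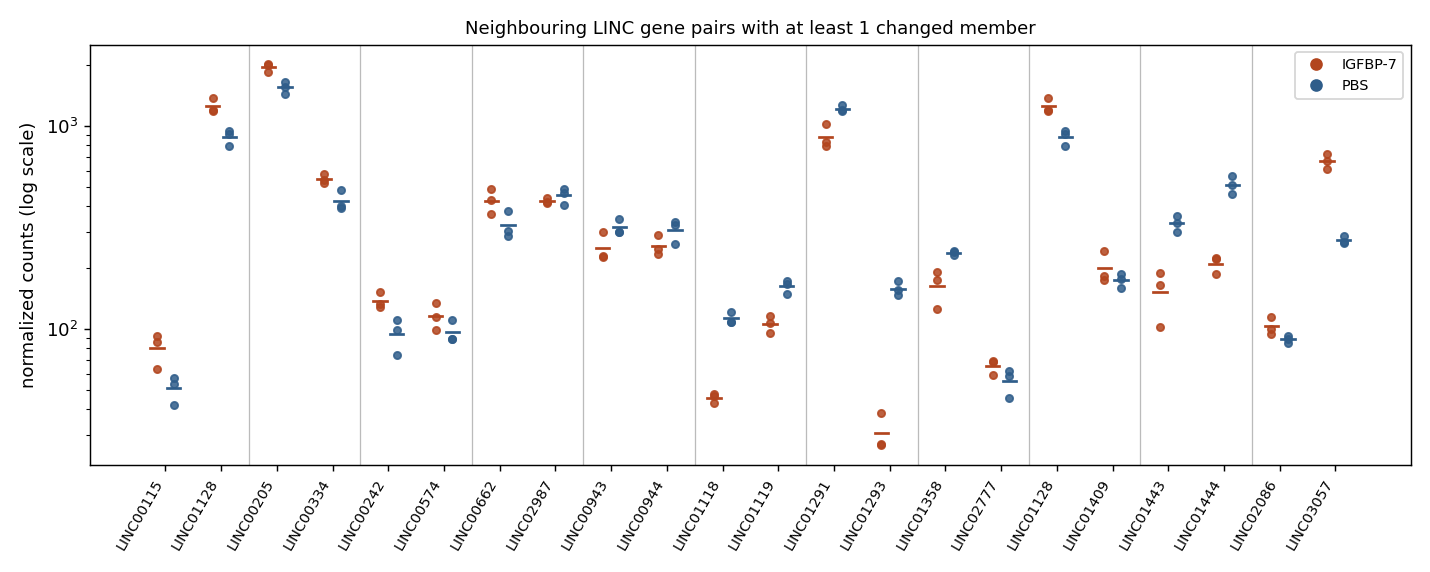
Normalized counts on a log axis in each of the 3 IGFBP-7 and 3 PBS libraries (points) with group means (bars), for the 11 neighbouring LINC pairs with at least 1 changed gene, pairs set off by vertical lines. In the pair LINC01291 and LINC01293 both genes are lower with IGFBP-7, the second to 30.6 against 157 in PBS.

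The nearest protein-coding gene of each member was taken from GENCODE 29, which held 153 of the 154 members by identifier. Of the 39 rising members 30 had a nearest coding gene among the tested genes, and 21 of these rose, 4 fell and 5 did not pass. Of the 38 falling members 25 had one, and 5 of these rose, 15 fell and 5 did not pass. Around the 76 matched members that did not pass, 12 of 42 such genes rose, 16 fell and 14 did not pass. The coding gene thus changed in the direction of the LINC gene in 36 of 55 cases, in 16 of 20 within 10 kb, 15 of 24 at 10 to 100 kb and 5 of 11 farther away. Among changed members with no shared exon it was 24 of 38. The cases count LINC genes and not separate coding genes. SAMD11, ANKRD30B, POFUT2 and SOCS5 were each the nearest gene of several changed members, and all of those pairs changed in the same direction. Of protein-coding genes with a mean of at least 50, 38.3% rose and 34.1% fell. Whether the agreement exceeded these shares was not tested. For other lncRNA genes with a mean of at least 50, 136 of 164 nearest coding genes of rising genes rose and 138 of 160 of falling genes fell. The difference between the gene classes was not tested.

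Among the rising members, TCF4, a transcription factor gene 112 kb from LINC01415, averaged 4425 ± 304 with IGFBP-7 and 1613 ± 75.3 with PBS. DACT1, which overlaps LINC01500, averaged 1457 ± 34.2 and 210 ± 13.9 in PBS, and SAMD11, 2.91 kb from LINC02593, averaged 2123 ± 123 and 758 ± 4.26 in PBS. On the sides of LINC01711 both coding genes rose: APCDD1L, 120 kb away, by 2.13 ± 0.07 and STX16, a syntaxin gene, by 0.47 ± 0.05 on the log2 scale. LINC01583 lies between MEX3B, an RNA-binding protein gene that rose by 1.03 ± 0.10, and EFL1, a ribosome maturation gene that fell by 0.36 ± 0.06. LINC01705 rose while both flanking genes fell. DUSP10, a MAP kinase phosphatase gene 300 kb away, fell by 0.40 ± 0.09 and HHIPL2, 457 kb away, by 0.74 ± 0.33. ZNF32, the nearest to LINC00840, and SLC39A11, the nearest to LINC00511, did not pass, while SOX9, 164 kb away on the other side of LINC00511, rose.

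Among the falling members, OGFRL1, next to LINC00472, averaged 2720 ± 156 with IGFBP-7 and 5296 ± 315 with PBS. Both genes flanking LINC00973 fell. The membrane protein gene DCBLD2, 79.4 kb away, fell by 0.92 ± 0.04 and the collagen gene COL8A1, 655 kb away, by 1.54 ± 0.06. Both genes flanking LINC02535 fell too. NT5E, the gene of the ectonucleotidase CD73, 59.4 kb away, fell by 0.35 ± 0.04. The transcription factor gene TBX18, 623 kb away, fell by 0.30 ± 0.07. For other large falls such company was partial or absent. PRKCQ, 199 kb from LINC00707, averaged 42.5 ± 11.5 with IGFBP-7 and 46.2 ± 15.3 with PBS and did not pass. SFMBT2 on the other side of LINC00707 averaged under 10 in both groups and was not tested. SMIM15, the nearest to LINC02057, rose by 0.31 ± 0.06 on the log2 scale. POLE4, the nearest to LINC01293 at 15.8 kb, had no value, and HK2, 46.9 kb away on the other side, rose by 0.40 ± 0.06. MYO16, the nearest to LINC03061, did not pass, while IRS2, 474 kb from LINC03061 on its other side, fell by 0.63 ± 0.07. LINC00265, chosen after its values were seen, fell by 0.80 ± 0.14, while its nearest coding gene RALA, which encodes a small GTPase, rose by 1.25.

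**Figure D5:**
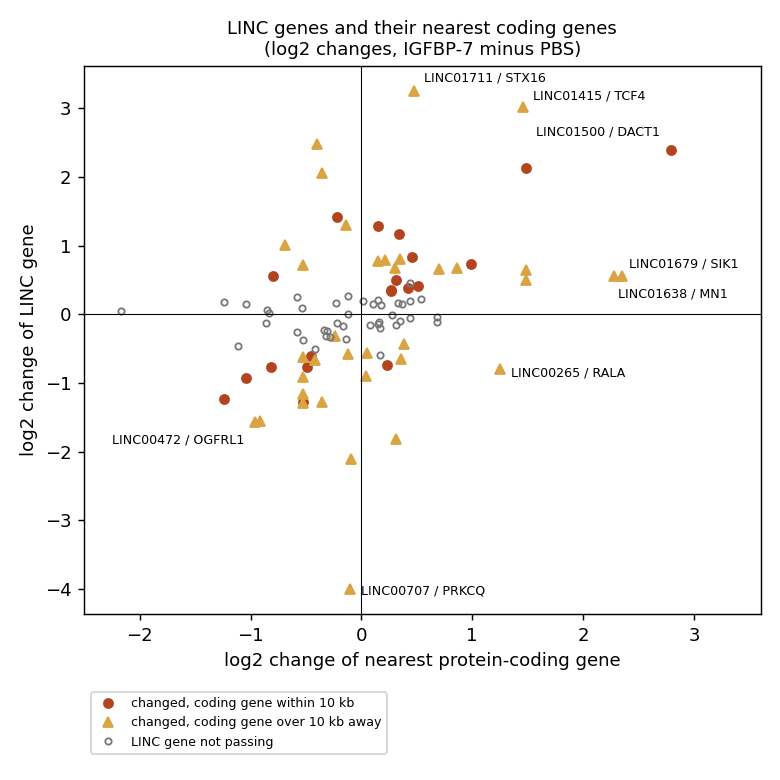
Log2 change (IGFBP-7 minus PBS) of each LINC gene against that of its nearest protein-coding gene, for the 97 pairs in which both were tested. Changed LINC genes with a coding gene within 10 kb (circles) lie mostly in the quadrants of equal sign, and LINC00707, 16.0-fold lower, stands beside -0.10 for PRKCQ.

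Promoter sequence was taken from RefSeq on GRCh38.p14, as the window from 250 bases before to 50 after the first start listed, which 116 of the 154 members had. Motifs were searched on both strands: TGANTCA, a loose form of the AP-1 site, CAGACA, which holds a SMAD-binding core, CATTCC of TEAD factors, and TGACGTCA, the cyclic AMP response element. In LINC01415 and LINC00973 the TGANTCA match was TGATTCA. The motifs do not contain each other. TGANTCA was present in 7 of 33 promoters of rising members (21.2%), 6 of 26 of falling members (23.1%) and 4 of 57 of members that did not pass (7.02%), against 7.76% of all 27305 promoters. CAGACA was present in 15.2%, 11.5% and 19.3% of these 3 groups, against 16.8% of all promoters, and CATTCC in 12.1%, 11.5% and 7.02%, against 14%. TGACGTCA was found in 3 of the 116 and in 1.98% of all promoters. The median GC content was 53.3% for rising members, 54.5% for falling members and 54.7% for the others, against 58.3% for all promoters. A match is a description of letters and not of a bound site.

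Of the members named for the size or the p-value of their change 15 had a promoter entry and 4 held TGANTCA, those whose windows are printed above.

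Well-known lncRNA genes outside the LINC naming were read from a list of 48, of which 41 were tested. With IGFBP-7, 26 were higher, 9 were lower and 6 stayed under the test's threshold (median log2 change 0.29). The share called was 85.4%, against 60.6% of all tested genes, and 63.4% were higher, against 31.3%. Many of the listed genes had high levels. At 500 and over, 70.3% of other lncRNA genes were called and 39.8% were higher. The list was chosen with earlier results of these data known, and the difference was not tested. NEAT1, the scaffold of nuclear paraspeckles, fell to 14536 ± 84.9 with IGFBP-7, against 27057 ± 287 with PBS, and MALAT1, an abundant nuclear RNA, fell by 0.42 ± 0.08 on the log2 scale, to 17013 ± 4165, against 22495 ± 2694 in PBS, with groups that overlapped. The SE of MALAT1 draws on genes of like level, while its own libraries spread widely, so its call is uncertain. CARMN, a smooth-muscle lncRNA, rose to 219 ± 10.4, against 36.2 ± 2.90, and MIR31HG to 1646 ± 91.9, against 510 ± 27.9. Genes for RNA decay and 3′ end steps were read from a list of 24, of which only 6 were in the table. These 6 rose by 0.22 to 0.36 on the log2 scale, where 31.3% of all tested genes and 47.1% of protein-coding genes at 500 and over were higher. With the rest of the list absent from the table, these 6 do not stand for the whole list. Among the 6 was DIS3, the nuclease of the RNA exosome, at 5965 ± 259 with IGFBP-7 and 5109 ± 152 with PBS.

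The 77 members that did not pass were not all measured with the same precision. Their 95% intervals reached 0.17 to 0.61 on the log2 scale to either side. In 73 the interval lay within a 2-fold change in both directions and in 41 within a 1.5-fold change. At an unadjusted p under 0.05 there were 4. At the threshold of membership, LINC02018, LINC02367 and LINC02166 had means of 50.7, 50.8 and 51.0. LINC02018 had 58.3, 42.3 and 52.7 with IGFBP-7 and 51.5, 37.3 and 61.9 with PBS. LINC02367 had 75.6, 55.9 and 44.4 with IGFBP-7 and 52.5, 45.2 and 31.0 with PBS, and LINC02166 had 56.2, 42.3 and 56.8 with IGFBP-7 and 49.4, 49.1 and 52.3 with PBS. The groups overlapped in all 3 genes. Means of LINC02550, LINC02970 and LINC00926, just outside the threshold, were 49.5, 49.3 and 48.7. Of the 986 LINC rows under the threshold 195 had a mean of at least 10 and were tested.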

How the data were processed

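RNA sequencing values of 3 IGFBP-7 and 3 PBS libraries of LX-2 cells were used, grouped by the treatment label of each sample. Per the file headers the table holds normalized counts, a signal that the authors derived from read counts and deposited without a log. STAR, Subread, featureCounts and DESeq2 are named per the submitters' processing notes, while no source used here gives the genome build, the annotation or how strand was counted. As the kit was directional but the counting is unknown, reads of genes that overlap cannot be told apart, and values of the 52 members that share exon sequence with another gene in GENCODE 29 (41 on the opposite strand, 18 on the same) are uncertain. Near-identical copies add to this for LINC00623, LINC00624 and LINC01138.

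In each library 100% of values were whole multiples of 1 step, within 0.01 of a step, so read counts could be recovered, and about 99.6% of counts were even. Without molecular identifiers reads may be copies of 1 molecule, so the floor covers counting error only. Libraries of a group differed beyond sampling noise (chi-square per degree of freedom 5.10 to 6.93), and all 6 were used. Unused per-sample columns numbered 0.

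Genes with a mean of at least 10 were fitted with limma-trend (limma 3.58.1, R 4.3.3) on the log2 scale after a pseudocount of 1, as IGFBP-7 minus PBS, two-sided, with Benjamini-Hochberg adjustment over 11872 genes. This scale understates the change of low genes. The SEs and p-values of limma-trend draw on the spread of genes of like level. They can thus be smaller than a gene's own spread among the libraries would give. The script was tested on simulated data. Alternatives were other pseudocounts, filters, scalings, members and libraries, edgeR 4.0.16 and DESeq2 1.42.0 on recovered reads, and a replicate block. Values per library were given for the 10 largest rises and falls without overlap of the groups, the 6 highest means, the 3 smallest p-values in each direction, the members at the threshold and members with a published role. Members, lists and motifs were chosen with earlier results of these data known.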

Additional observations from a re-analysis of the deposited data

How the results depend on the processing

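The counts of 39 rising and 38 falling LINC genes stayed within 1.5 times under other pseudocounts, filters, quantile normalization, scaling to the library total and TMM factors, with edgeR (39 and 43) and with DESeq2 (38 and 42). Leaving out 1 library gave 33 to 38 higher and 35 to 42 lower. No called member changed sign under these settings; scaling to the library total lost 9 calls and gained 13. A membership mean of at least 20 gave 60 members lower and one of at least 100 gave 25, as the number of genes entering changed. Members with no shared exon, a choice made after the data were seen, gave 25 higher and 27 lower, from fewer genes. Over all tested genes scaling to the library total gave 2432 higher, with the median change moved by -0.14. The normalized totals being scaled were 23373767 to 24123228 with IGFBP-7 and 21287527 to 21682060 with PBS. Why these totals differed was not tested. LINC02018 and LINC02166, near 0 and not passing, reversed to -0.10 and -0.11 with that scaling and ranged from -0.15 to 0.20 and from -0.042 to 0.17 with 1 library left out. Of 544 values of 34 named genes 535 kept direction and call, 6 reversed, 2 lost their call and 1 gained one. Same-numbered libraries did not deviate together (correlations -0.05, 0.01 and -0.05), and a replicate block gave 39 higher and 39 lower. Low members were measured less precisely: those at a mean of 50 to 100 had a median SE of 0.25, against 0.09 at 500 and over, and the parts of counting error and of spread between libraries in this were not separated.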
